A study of Mus musculus with 12 samples.

Results

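The sialic acid and fucose enzymes are the enzymes that make, attach and remove the 2 sugars that usually cap the outer ends of cell surface glycans. They were chosen by name, as every probe set whose RefSeq accession matched a mouse gene symbol starting with St3gal, St6gal, St8sia, Pofut or Fut and a number, or the symbols Gne, Nans, Nanp, Cmas, Cmah, Npl, Neu1, Neu2, Neu3, Fpgt or Gmds. The rule took 43 of 1246 probe sets, for 39 of 909 named genes. They were 5 genes of sialic acid synthesis and breakdown, 19 sialyltransferases, 3 sialidases, 2 genes of GDP-fucose synthesis, 8 fucosyltransferases and 2 protein O-fucosyltransferases. Nanp and St6gal2 were matched by no probe set and are not analysed here. Fut2, Fut4 and Fut10 had more than 1 probe set, told apart below by the ending of the probe set name (at, s_at or x_at).

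The samples were total RNA from mouse epidermis taken at set times after skin wounding and hybridised to 1-colour expression arrays. There were 4 non-wounded samples, 1 sample at 0 h, 2 samples at 30 min, 4 samples at 2 h and 1 sample at 4 h after wounding. The sample titles carry the code B6 in every group and name no genotype, transgene or other treatment. No label or header used here gives the age of the mice. The titles call the cells dendritic epidermal T cells, whereas the design text describes RNA from whole epidermis, in which keratinocytes are the main cell type. The keratinocyte marker Lgals7 had log2 values between 11.00 and 12.36 in all 12 samples. Among the T cell markers, Klrk1, an activating receptor of these T cells, lay between 2.27 and 3.12 and Cd2 between 4.52 and 5.75. The values are described below as those of epidermal RNA, in which fewer cells of a type and less RNA per cell cannot be told apart.

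Sialic acid is built in the cytosol from UDP-N-acetylglucosamine, activated to CMP-sialic acid in the nucleus, and moved into the Golgi, where sialyltransferases attach it to galactose, N-acetylgalactosamine or another sialic acid. Sialidases take it off again, in lysosomes, in the cytosol or at the plasma membrane. Fucose is activated to GDP-fucose, from GDP-mannose or by salvage, and is then attached to galactose, to N-acetylglucosamine or directly to protein. In epidermis these sugars mark stages of keratinocyte differentiation, and on leukocytes they form part of the ligands for selectins.

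The 250 bases before the start of the 2 genes with the smallest p-values at 2 h, Fut1 and Neu3, are given from RefSeq (GRCm38.p6). The Fut1 window is chr7:45617356-45617605 on the plus strand and the Neu3 window is chr7:99828418-99828667 on the minus strand, both printed 5′ to 3′ along the gene. Capitals mark the GC boxes (GGGCGG on either strand) in Fut1 and the CCAAT box (CCAAT on either strand) in Neu3.
Fut1: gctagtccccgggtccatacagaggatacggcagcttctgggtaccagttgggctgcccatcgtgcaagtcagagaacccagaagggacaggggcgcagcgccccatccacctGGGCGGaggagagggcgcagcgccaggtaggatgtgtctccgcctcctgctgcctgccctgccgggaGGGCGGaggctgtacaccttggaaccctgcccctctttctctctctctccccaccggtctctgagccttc
Neu3: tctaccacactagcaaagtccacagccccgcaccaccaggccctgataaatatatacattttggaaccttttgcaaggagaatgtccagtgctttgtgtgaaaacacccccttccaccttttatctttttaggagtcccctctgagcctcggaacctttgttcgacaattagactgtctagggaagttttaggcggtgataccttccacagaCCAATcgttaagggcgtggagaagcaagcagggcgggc
The Fut1 window held 2 GC boxes, no CCAAT box, and 65.6% G and C. The Neu3 window held 1 CCAAT box and 1 GC box, with 49.2% G and C, and the 2 motifs do not share letters. Among all 32851 mouse promoter windows of that length, 32.7% held a GC box and 33.8% a CCAAT box, and the median share of G and C was 52.4%. Neither window held TATAAA, which 12.4% of all windows had, nor TGANTCA (the AP-1 motif, on either strand), which 6.75% had. Of the 39 genes, 27 had an entry among these windows.

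The samples numbered 1 in the titles, 1 in each group, stood apart from the 7 numbered 2 to 4. The SD of the log2 values over all probe sets was between 1.55 and 1.85 in the samples numbered 1 and between 2.19 and 2.30 in the others. Over the 43 probe sets of the enzymes it was between 0.94 and 1.21 in the samples numbered 1, and between 1.44 and 1.61 in the others. The only 0 h and 4 h samples are both numbered 1, so at those times the nearest reference is the non-wounded sample numbered 1. The samples numbered 1 also differed among themselves. Their SD over all probe sets was 1.81 (non-wounded), 1.85 (0 h), 1.56 (30 min), 1.59 (2 h) and 1.55 (4 h). Comparisons with the non-wounded sample numbered 1 at 30 min, 2 h and 4 h therefore do not fully separate the kind of sample from the time. With numbers 2 to 4 alone, the sign of the difference turned for 8 of 43 probe sets at 2 h against non-wounded. It turned for 7 at 30 min against non-wounded and for 15 between 2 h and 30 min. Numbers 2 to 4 hold 1 sample at 30 min, on which those last counts rest.

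**Figure D1:**
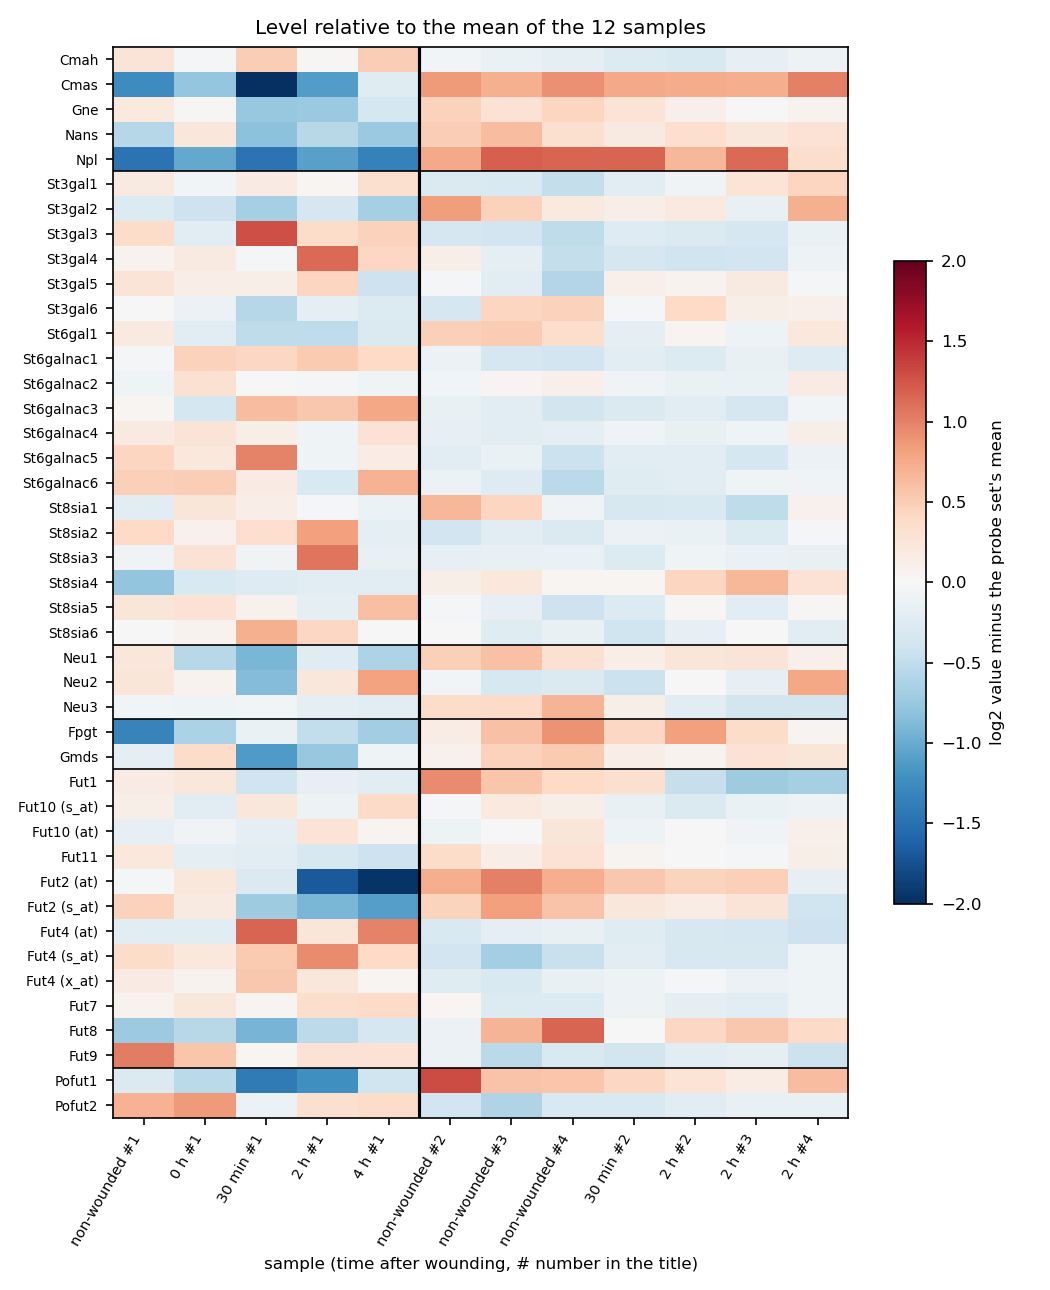
Heat map of the 43 probe sets (rows, ordered by role and divided by thin lines) in the 12 samples (columns, those numbered 1 left of the thick line), as the log2 value minus the probe set's mean over all samples. Cmas and Npl are low in the samples numbered 1 and high in the others, whereas Fut1 is low in the 2 h samples numbered 2 to 4.

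At 2 h after wounding, fucosyltransferases and a sialidase had the smallest p-values among the enzymes. Fut1 and Fut2, the enzymes that fucosylate galactose to build the H antigen, and Neu3, the sialidase of the plasma membrane, were lower in the 2 h samples than in the non-wounded ones. In the fit of all 12 samples no enzyme passed the threshold (limma, Benjamini-Hochberg adjusted p under 0.05), 0 of 43 probe sets against 0.241% of all 1246. Without the samples numbered 1, Fut1 and Neu3 passed it, 2 of 43 against 3.05% of all probe sets. With array weights 7 of 43 passed, against 10.4% of all, and with the replicate number as a block 0 of 43, against 1.36%. An unadjusted p under 0.05 was found for 4 of the 43 probe sets, against 4.65% of all: those of Fut1, Neu3, Fut2 (s_at) and St6gal1.

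Fut1 had log2 values of 5.13, 4.84, 4.58 and 4.62 in the 2 h samples numbered 1 to 4, against 5.45, 6.24, 5.85 and 5.69 in the non-wounded samples numbered 1 to 4. All 4 samples at 2 h lay below all 4 non-wounded ones, and the closest values were those of the samples numbered 1. The difference was -1.01 ± 0.23 on the log2 scale (SE), 2.02-fold lower at 2 h, with a limma adjusted p of 0.171. Between samples of the same number the difference was -0.32 for number 1 and -1.40, -1.27 and -1.07 for numbers 2 to 4. With numbers 2 to 4 alone, Fut1 fell by 1.25 on the log2 scale (limma adjusted p = 0.0104). The 0 h sample was at 5.52, the 30 min samples at 4.90 and 5.61, and the 4 h sample at 5.08.

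Neu3, which acts mainly on gangliosides, had log2 values of 2.61, 2.61, 2.44 and 2.44 at 2 h, against 2.76, 3.19, 3.19 and 3.49 in the non-wounded samples. The groups did not overlap, and the spread within the 2 h group was the smaller one (SD 0.10 at 2 h and 0.30 in the non-wounded samples, n = 4 each). The difference was -0.63 ± 0.18 on the log2 scale, with a limma adjusted p of 0.354. It was -0.15 between the samples numbered 1 and -0.58, -0.75 and -1.05 for numbers 2 to 4. With numbers 2 to 4 alone, Neu3 fell by 0.79 on the log2 scale (limma adjusted p = 0.0194). These log2 values are near the low end of the table (mean level at percentile 14.0 of all probe sets), and no detection call separates them from background. A difference there may understate the change in RNA or may be one of background. What the low level does to the difference and to the smaller spread at 2 h was not tested. Neu3 was among the probe sets that a filter on the lowest 25% of mean levels removes.

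Fut2 was measured by 2 probe sets. The s_at probe set had 5.41, 6.47, 6.57 and 5.92 at 2 h, against 6.79, 6.77, 7.14 and 6.90 in the non-wounded samples, with no overlap. The at probe set had 5.66, 7.78, 7.83 and 7.18 at 2 h, against 7.31, 8.06, 8.35 and 8.07 in the non-wounded samples, where the groups overlapped. Both were lower at 2 h in 4 of 4 pairs of the same number. The differences were -0.81 ± 0.30 for the s_at probe set (limma adjusted p = 0.763) and -0.84 ± 0.47 for the at probe set (adjusted p = 0.998). Here the pair numbered 1 carried the biggest difference, -1.38 for the s_at probe set, against -0.30, -0.57 and -0.98 for numbers 2 to 4, the opposite of Fut1 and Neu3.

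Fut10 and Fut11 are related in sequence to the fucosyltransferases that act on N-acetylglucosamine. The s_at probe set of Fut10 had 3.62, 3.43, 3.59 and 3.62 at 2 h, against 3.83, 3.69, 3.91 and 3.84 in the non-wounded samples. These groups did not overlap, with a small difference of -0.25 ± 0.15 (limma adjusted p = 0.998) and pair differences between -0.32 and -0.21. The other probe set of Fut10 had 3.47, 3.21, 3.12 and 3.29 at 2 h, against 3.03, 3.09, 3.19 and 3.44 in the non-wounded samples, a difference of 0.09 ± 0.15. The 2 probe sets of Fut10 thus had differences of opposite sign, neither of which passed the threshold. The at probe set had a mean level at percentile 24.96 of all probe sets. Its sign turned negative under quantile normalization (-0.0077) and with every sample brought to one median and SD (-0.022). Fut11 had 3.95, 4.25, 4.23 and 4.39 at 2 h, against 4.48, 4.63, 4.39 and 4.56 in the non-wounded samples. The groups did not overlap, but the gap between them does not show at 2 decimals, and the difference was -0.31 ± 0.16.

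The remaining fucosyltransferases gave differences at 2 h between -0.16 (Fut9, which makes the Lewis x structure) and 0.34 (the s_at probe set of Fut4, another Lewis x enzyme). That of Fut9 rested on the non-wounded sample numbered 1, at 3.69, and was 0.04 with numbers 2 to 4 alone. Fut8, which adds the core fucose of N-glycans, had -0.04 ± 0.43, and Fut7, which completes the sialyl Lewis x ligand of selectins in leukocytes, had 0.08 ± 0.18. In all, 7 of 12 probe sets of fucosyltransferases were lower at 2 h, with a median of -0.10. Of the O-fucosyltransferases, Pofut1, which modifies Notch and other proteins with EGF repeats, had a difference of -0.58 ± 0.52, and Pofut2, which modifies thrombospondin repeats, had 0.10 ± 0.28. The enzymes of GDP-fucose synthesis had -0.26 ± 0.33 (Gmds, of the route from GDP-mannose) and 0.11 ± 0.47 (Fpgt, of the salvage route), the second of which was -0.13 with numbers 2 to 4 alone.

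**Figure D2:**
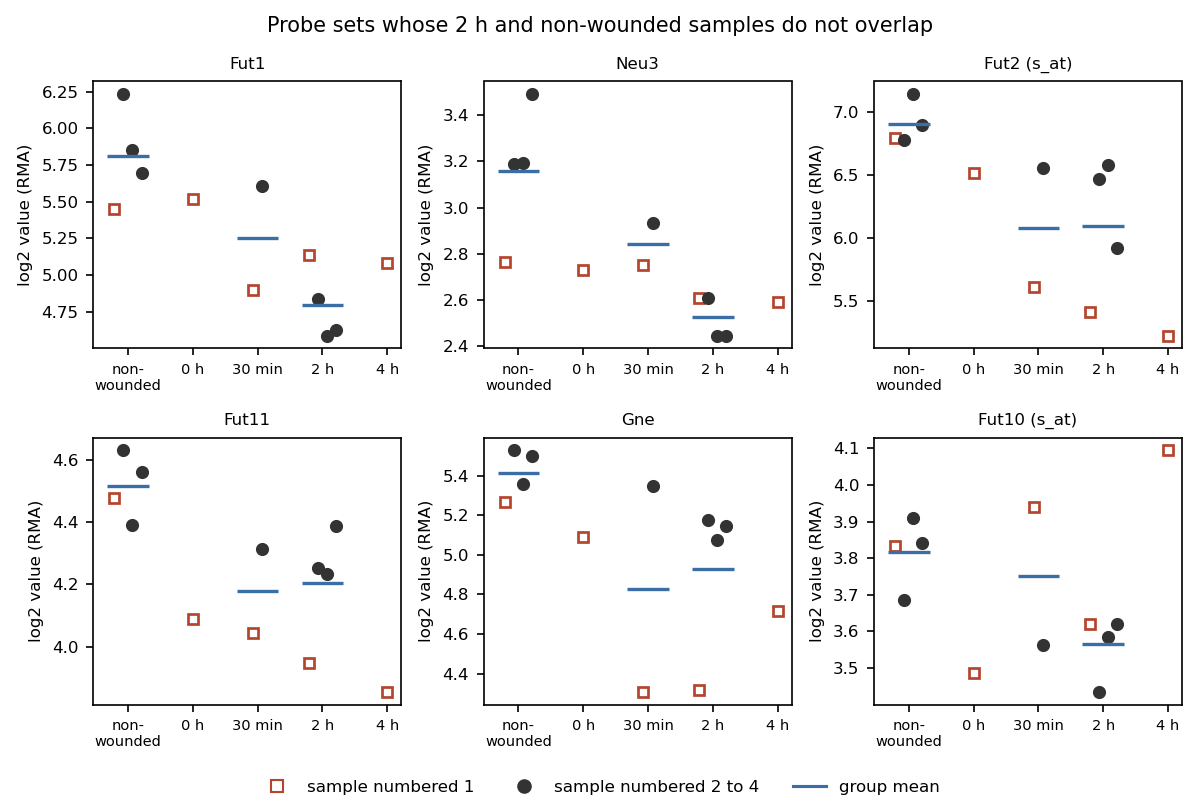
Log2 values of the 6 probe sets whose 2 h samples did not overlap with the non-wounded samples, by group in time order. Open squares are the samples numbered 1, filled circles those numbered 2 to 4, and lines are group means where a group has more than 1 sample; all 6 are lower at 2 h, and the Fut1 and Neu3 samples numbered 1 lie closest between the groups.

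Counted over the whole set, the samples at 2 h and the non-wounded samples did not overlap for 6 of 43 probe sets, all lower at 2 h, where 2.73% of all probe sets were separated in that direction. They belong to Fut1, Neu3, Fut2, Gne, Fut11 and Fut10. None of the 43 was separated with higher values at 2 h, against 2.01% of all probe sets. The median of the set lay near that of all probe sets: 22 of 43 probe sets were lower at 2 h, against 45.5% of all, and the median difference was -0.02, against 0.03 over all probe sets. With every sample brought to one median and SD, 63.3% of all probe sets were lower at 2 h, and the median of all moved to -0.06 and that of the 43 probe sets to -0.10. The differences in same-number pairs had the same sign, lower at 2 h, in 4 of 4 pairs for 10 of 43 probe sets, against 11.6% of all. They were higher at 2 h in 4 of 4 pairs for 5 of 43, against 13.4% of all: 2 probe sets of Fut4, and those of St3gal3, St3gal5 and St8sia4.

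Among the genes of sialic acid synthesis and breakdown, 4 of 5 were lower at 2 h, with a median of -0.15, and none passed the threshold. Gne, the bifunctional enzyme that starts sialic acid synthesis, had 4.32, 5.18, 5.08 and 5.15 at 2 h, against 5.27, 5.53, 5.36 and 5.50 in the non-wounded samples. Its groups did not overlap, and the 2 h sample numbered 1 was far below the others. The difference was -0.48 ± 0.27 with all samples and -0.33 with numbers 2 to 4 alone (limma adjusted p = 0.998 and 0.113). The next enzymes of the route had differences of -0.15 ± 0.34 (Nans, which condenses the sugar phosphate) and 0.04 ± 0.76 (Cmas, which makes CMP-sialic acid). Cmah, which converts CMP-sialic acid to the N-glycolyl form that mice but not humans make, had -0.11 ± 0.20, and Npl, which cleaves free sialic acid, had -0.15 ± 0.77. The wide errors of Cmas and Npl come with low values in the samples numbered 1: Cmas was at 5.74 at 2 h and 5.60 in the non-wounded group in those samples, and between 7.57 and 7.86 in the samples numbered 2 to 4 of both groups.

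The sialyltransferases showed no common direction, with 7 of 19 lower at 2 h and a median of 0.11. St6gal1, which attaches sialic acid to the galactose of N-glycans, had 4.51, 5.07, 4.91 and 5.22 at 2 h, against 5.19, 5.49, 5.52 and 5.37 in the non-wounded samples. The groups overlapped by 1 pair of values, 5.22 at 2 h and 5.19 in the non-wounded sample numbered 1. The difference was -0.47 ± 0.19 (limma adjusted p = 0.855), and each of the 4 pairs was lower at 2 h, with log2 differences between -0.68 and -0.15. St3gal1, which sialylates the core of O-glycans, had 4.69, 4.59, 4.92 and 5.09 at 2 h, against 4.83, 4.36, 4.35 and 4.18 in the non-wounded samples. Here the sample numbered 1 was the one lower at 2 h, and the difference was 0.40 ± 0.20 with all samples and 0.57 with numbers 2 to 4 alone (limma adjusted p = 0.998 and 0.103). St8sia1, the GD3 ganglioside synthase, had a difference of -0.40 ± 0.24 and St8sia4, a polysialic acid synthase, one of 0.40 ± 0.27. St3gal5, which makes the ganglioside GM3, had 0.31 ± 0.20.

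The sialidases differed among themselves at 2 h. Beside Neu3, the lysosomal sialidase Neu1 had 4.61, 5.11, 5.12 and 4.96 at 2 h, against 5.08, 5.33, 5.44 and 5.16 in the non-wounded samples, a difference of -0.30 ± 0.24. The cytosolic sialidase Neu2 had 5.39, 5.17, 5.01 and 5.93 at 2 h, against 5.41, 5.11, 4.85 and 4.87 in the non-wounded samples, a difference of 0.31 ± 0.24. Neither passed the threshold (limma adjusted p = 0.998 for each).

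**Figure D3:**
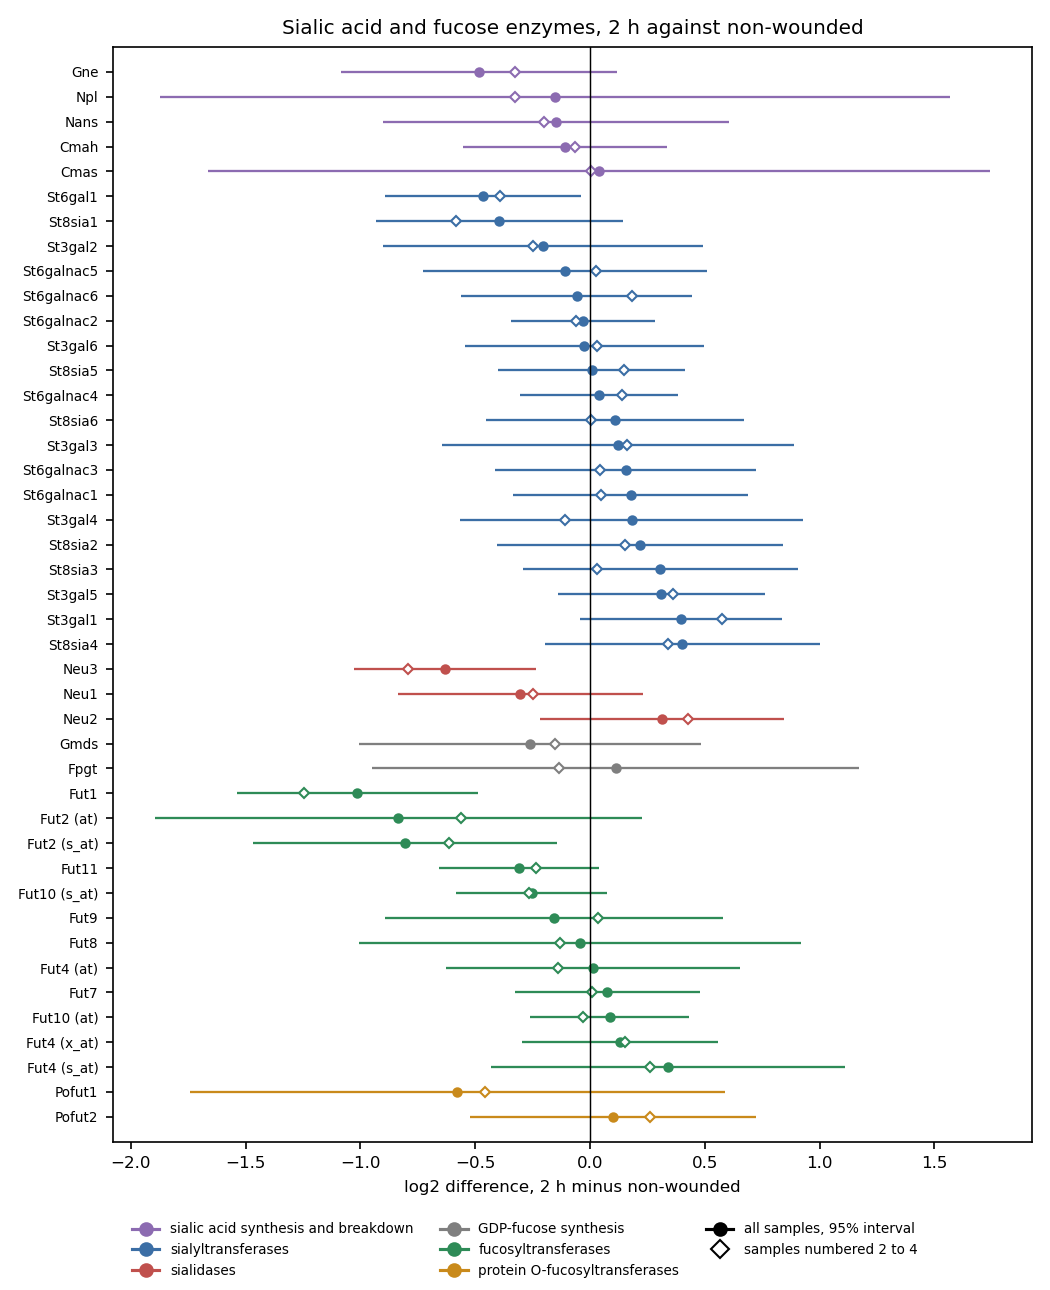
Log2 difference between the 2 h and the non-wounded samples for the 43 probe sets, grouped by role, with filled circles for all samples, lines for the 95% interval of the limma fit and open diamonds for the samples numbered 2 to 4 alone. Fut1 (-1.01) and Neu3 (-0.63) have intervals below 0 and lie farther from 0 without the samples numbered 1, and most sialyltransferases lie near 0.

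At 30 min, where only 2 samples were measured, no enzyme passed the threshold (limma), 0 of 43 against 0% of all probe sets. An unadjusted p under 0.05 was found for 3 of 43 probe sets, against 5.06% of all. Lower values at 30 min than in the non-wounded samples were seen for 27 of 43 probe sets, against 46.2% of all, with a median of -0.07 against 0.04 over all. That share moved with the scaling: with one median and SD in every sample, 59.3% of all probe sets and 29 of the 43 were lower. The 30 min samples lay below all 4 non-wounded samples for 5 of 43 probe sets, against 5.14% of all, and above them for none, against 2.49%.

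Those 5 probe sets were of St6gal1, Neu1, Neu2, Fut11 and Fut2 (s_at). St6gal1 had 4.50 and 4.83 at 30 min, against 5.19 to 5.52 in the non-wounded samples, and its 2 pair differences were close to each other at -0.69 and -0.66. Its difference was -0.73 ± 0.23 (limma adjusted p = 0.735). Neu1 had 3.943 and 4.997 at 30 min, against 5.08 to 5.44 in the non-wounded samples, a difference of -0.78 ± 0.29 with the same adjusted p. Neu2 had 4.30 and 4.73 at 30 min, against 4.85 to 5.41 in the non-wounded samples, a difference of -0.54 ± 0.29. Fut2 (s_at) had 5.61 and 6.55 at 30 min, against 6.77 to 7.14 in the non-wounded samples, a difference of -0.82 ± 0.36. With numbers 2 to 4 alone, which leaves 1 sample at 30 min, all 5 differences were smaller in size. They were -0.63 for St6gal1, -0.31 for Neu1, -0.21 for Neu2, -0.21 for Fut11 and -0.38 for Fut2 (s_at).

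Fut1 had 4.90 and 5.61 at 30 min, against 5.45 to 6.24 in the non-wounded samples, a difference of -0.55 ± 0.29 (limma adjusted p = 0.735), with overlap. It was -0.20 without the 30 min sample numbered 1 and -0.91 without that numbered 2. Neu3 had 2.75 and 2.94 at 30 min, against 2.76 to 3.49 in the non-wounded samples, a difference of -0.32 ± 0.22 (adjusted p = 0.737). Fut10 differed by -0.07 ± 0.18 (s_at) and -0.13 ± 0.19 (at). For Fut4 (at) the value of 0.68 ± 0.35 rested on 1 library. It had 3.85 in the 30 min sample numbered 1 and 2.44 in that numbered 2, against 2.37 to 2.53 in the non-wounded samples. The other Fut4 probe sets had 4.90 and 4.16 (s_at) and 3.85 and 3.22 (x_at) in the same 30 min samples. Their non-wounded ranges were 3.70 to 4.74 and 3.01 to 3.48. Without the 30 min sample numbered 2, Fut4 (at) and Neu1 passed the threshold (1.38 and -1.31, limma adjusted p = 0.0400 for both), 2 of 43 against 5.94% of all probe sets. That fit leaves 1 sample at 30 min, numbered 1, and assumes that it varies like the other groups. Without the sample numbered 1 the differences were -0.028 for Fut4 (at) and -0.26 for Neu1.

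Between 2 h and 30 min no enzyme passed the threshold (limma), 0 of 43 against 0% of all probe sets, and 1 of 43 had an unadjusted p under 0.05, against 2.17% of all. That one was Neu2, with 5.39, 5.17, 5.01 and 5.93 at 2 h, against 4.30 and 4.73 at 30 min, a difference of 0.86 ± 0.29 (limma adjusted p = 0.980). The differences with the next smallest p-values, other than that of Fut1, rested on the 30 min sample numbered 1. Fut4 (at) had 2.93, 2.36, 2.35 and 2.27 at 2 h, against 3.85 and 2.44 at 30 min, a difference of -0.66 ± 0.35. St6galnac5, a sialyltransferase of gangliosides, had 2.70, 2.57, 2.44 and 2.68 at 2 h, against 3.79 and 2.58 at 30 min, a difference of -0.58 ± 0.34. Neu1 differed by 0.48 ± 0.29, and all 3 lay near 0 without that sample. Higher values without overlap at 2 h were found for 2 of 43 probe sets, Neu2 and Fut10 (at), against 3.77% of all. Lower values without overlap were found for 1, Neu3, against 1.69% of all. In all, 18 of 43 probe sets were lower at 2 h than at 30 min, against 49.4% of all. Fut1 differed by -0.46 ± 0.29 between 2 h and 30 min. The comparisons of 30 min and of 2 h with the non-wounded samples share those samples.

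The 0 h and 4 h samples had no replicates, so no test was made. At 0 h, 1 of 43 probe sets was lower than the mean of the non-wounded samples by 1 or more on the log2 scale and outside their range, against 5.38% of all, and 0 were higher, against 0.963%. That one was Pofut1, at 5.48, with a difference of -1.07 from the mean but of -0.25 from the non-wounded sample numbered 1. Against that sample 0 of 43 were lower by 1 or more, against 0.562% of all, and 0 higher, against 0.321%. With one median and SD in every sample, Pofut1 was at -0.93 from the mean. Those past 1 and outside the non-wounded range were then Neu1 (-1.01) and Pofut2 (1.05). At 4 h, 3 of 43 were lower, against 17.3% of all, and 1 higher, against 6.18%.

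Fut2 had the lowest values of all 12 samples at 4 h in both probe sets, 5.38 (at) and 5.22 (s_at). These lay 2.57 and 1.68 below the non-wounded means on the log2 scale, and 1.93 and 1.57 below the non-wounded sample numbered 1. The 2 h sample numbered 1 was next, at 5.66 and 5.41. The 30 min sample numbered 1 was at 7.05 and 5.61, and the 0 h sample numbered 1 at 7.57 and 6.51. The third lower probe set at 4 h was that of Neu1, at 4.25, with a difference of -1.01 from the mean and of -0.84 from the non-wounded sample numbered 1. The higher one was Fut4 (at), at 3.67, a difference of 1.20 from either, with a mean level at percentile 10.4 of all probe sets. The other Fut4 probe sets differed by 0.69 (s_at) and 0.17 (x_at) from the non-wounded mean. From the non-wounded sample numbered 1 they differed by 0.04 and -0.12. With one median and SD in every sample, Fut4 (at) was at 0.71 from the mean, and the higher ones were instead Neu2 and St6galnac6 (1.07), while both Fut2 probe sets stayed lower (-2.20 and -1.45). Against the non-wounded sample numbered 1, 2 of 43 probe sets were higher by 1 or more at 4 h, those of Fut4 (at) and Cmas (1.02), against 3.29% of all, and 2 were lower, against 8.51%.

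**Figure D4:**
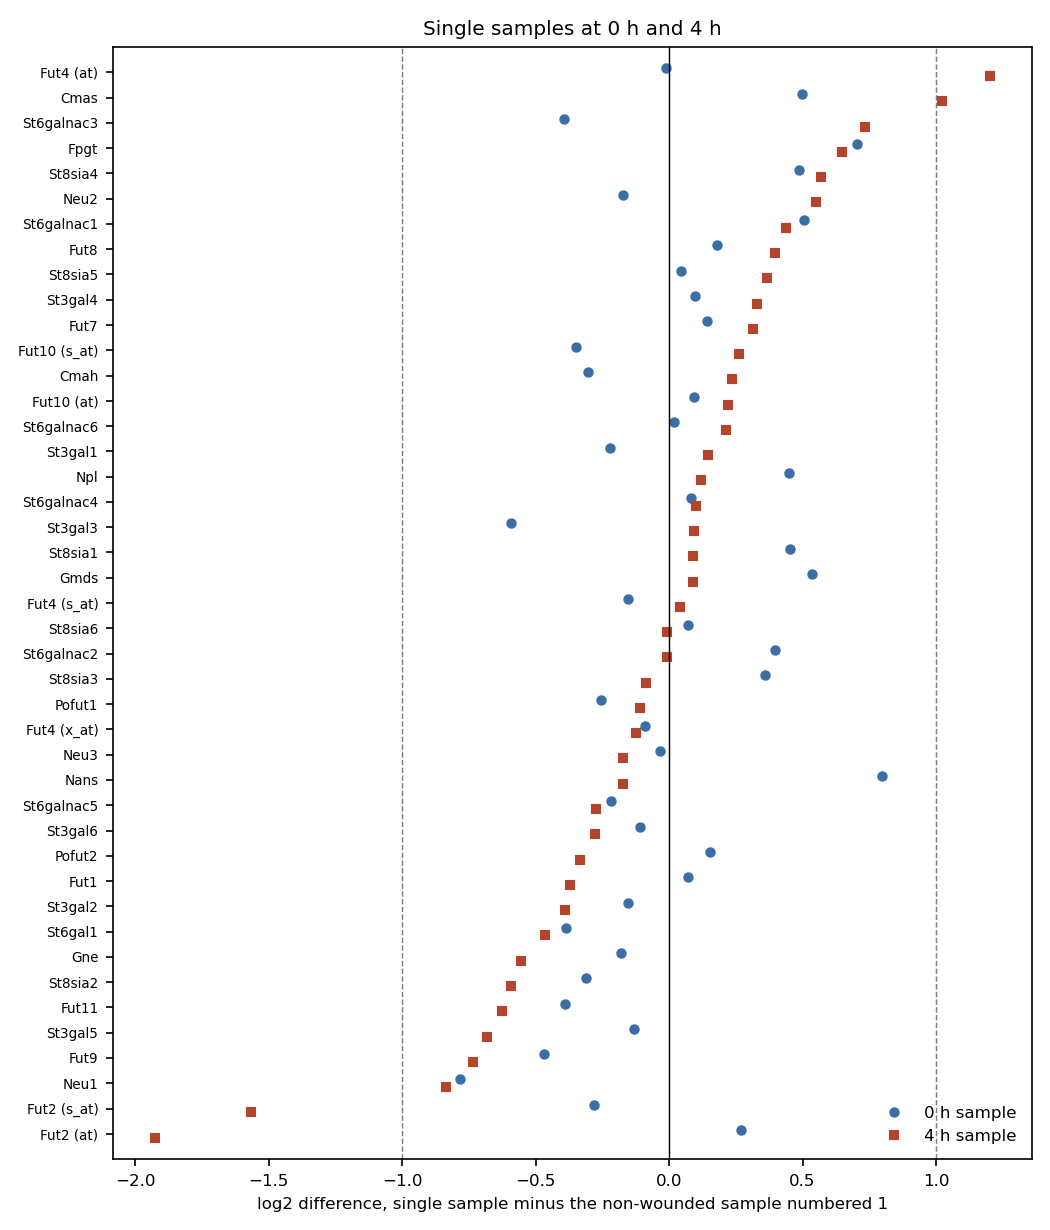
Log2 difference of the single 0 h sample (circles) and the single 4 h sample (squares) from the non-wounded sample numbered 1, for the 43 probe sets ordered by the 4 h value, with dashed lines at a difference of 1 in either direction. Both Fut2 probe sets lie lowest at 4 h (-1.93 and -1.57) and Fut4 (at) and Cmas lie highest (1.20 and 1.02).

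Genes that supply or use the same sugars were followed by 3 lists. Of the genes of sugar handling and transport, 10 of 16 were measured. Of these, 8 were lower at 2 h, with a median of -0.22, and 9 were lower at 30 min, with a median of -0.35. Over all probe sets, 45.5% were lower at 2 h (median 0.03) and 46.2% at 30 min (median 0.04). Nagk, which phosphorylates N-acetylglucosamine, had the lowest difference of that list, -0.99 ± 0.55 at 2 h and -1.39 ± 0.67 at 30 min. The GDP-fucose transporter Slc35c1 had -0.33 ± 0.43 at 2 h, the CMP-sialic acid transporter Slc35a1 had -0.15 ± 0.50, and Gfus, which completes GDP-fucose synthesis, had -0.14 ± 0.15. None of the 10 passed the threshold at either time (limma). With the replicate number as a block only Uap1, which makes UDP-N-acetylglucosamine, did so at 2 h, where 1.36% of all probe sets passed. Its difference was 1.11 (limma adjusted p = 0.0448 with the block and 0.998 without it).

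Of the enzymes that build the acceptors, 14 of 15 were measured, with 6 lower at 2 h and a median of 0.11, and 0 passed the threshold with or without the block. B4galt5, which makes lactosylceramide, the acceptor of the GM3 synthase, had a difference of 0.86 ± 0.19 at 2 h (limma adjusted p = 0.160). Of the lectins that read these sugars, 16 of 16 were measured and 14 were higher at 2 h, against 679 of all 1246 probe sets. Their median was 0.17, which became 0.04 with one median and SD in every sample. None of the 16 passed the threshold without the block. With it Cd207, the langerin of Langerhans cells, did (0.91, limma adjusted p = 0.0448), where 1.36% of all probe sets passed. Sele and Selp, selectins of endothelium, had differences of 0.27 ± 0.22 and 0.16 ± 0.16.

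Markers of cell types of the skin were followed over the same samples, and none of them passed the threshold in the fit of all 12 samples. Of 11 keratinocyte markers 5 were measured, all 5 lower at 2 h, against 45.5% of all probe sets, with a median of -0.31. With the replicate number as a block, Il20rb among them passed (-1.03, limma adjusted p = 0.0448), where 1.36% of all probe sets passed. Their summed values on the linear scale, most of which is Lgals7, were between 2752 and 6395 at 2 h, between 2427 and 5910 at 30 min and between 4329 and 7034 in the non-wounded samples. In the samples numbered 2 to 4 those sums overlapped, at 6150 to 6395 at 2 h and 5356 to 7034 in the non-wounded samples. Without Lgals7, the sums of the other 4 markers did not overlap there, at 1129 to 1425 and 1517 to 1778. Among these markers, Il20rb was at 7.90 to 8.66 at 2 h and 9.06 to 9.33 in the non-wounded samples numbered 2 to 4. Sdc1 was at 8.88 to 8.89 and 9.02 to 9.32, whereas the values of Egfr and Jag1 overlapped. Over all samples, the sums of those 4 overlapped, at 294 to 1425 at 2 h and 680 to 1778 in the non-wounded samples.

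Of 8 dermal fibroblast markers 6 were measured, all 6 higher at 2 h, with a median of 0.23, and all 6 higher at 30 min. Of all 1246 probe sets, 679 were higher at 2 h and 670 at 30 min. The median at 2 h became 0.11 with one median and SD in every sample. Over all samples their sums overlapped, at 108.6 to 129.7 at 2 h and 82.1 to 109.9 in the non-wounded samples. In the samples numbered 2 to 4 they did not, at 108.6 to 129.7 at 2 h and 82.1 to 98.6 in the non-wounded ones. Of 7 neutrophil markers 4 were measured, all 4 higher at 2 h, with sums between 427 and 1435 at 2 h and between 310.1 and 1286 in the non-wounded samples. Of 7 Langerhans cell markers 4 were measured, with sums between 1078 and 3060 at 2 h and between 1443 and 2833 in the non-wounded samples. The 4 of 11 T cell markers measured had sums between 77.4 and 127 at 2 h and between 63.3 and 86.8 in the non-wounded samples. The part of the cell types in the differences of the enzymes was not tested.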

How the data were processed

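Per the labels' protocols, Trizol RNA was turned into biotin cRNA as Affymetrix describes. RMA, which corrects background, normalizes and summarises probe sets, is the tool in the submitters' processing notes. The deposited values, 1246 probe sets in 12 samples, are on a log2 scale, as the range of the deposited log2 values shows. No source used here gives the array, any filter or hybridisation batches. There is no detection call, and precision is limited by the number of arrays.

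Probe sets were named by RefSeq accession without version, through a gene table of GRCm38.p6: 963 had 1 symbol, 0 several and 283 none. The members of the set, the gene lists and the markers were chosen with earlier results of these data known. Groups and numbers came from the titles. Nothing says that each sample is a separate mouse, so the p-values rest on a spread between samples that may be technical. No 2 samples held identical values (highest correlation 0.995).

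The deposited log2 values of all 12 samples were tested in limma 3.58.1 under R 4.3.3 (lmFit, then eBayes) with 1 mean per group, two-sided, adjusted by Benjamini-Hochberg over 1246 probe sets, at a threshold of 0.05. It was tested on simulated data. Given in full are Fut1, Fut10, Neu3 and, in each comparison, the 5 probe sets with the smallest p; the others named are those whose groups did not overlap or that show a role. Single samples were set against the non-wounded mean and range, and a difference of 1 outside the range was counted. Summaries and figures used Python 3.11.15 and matplotlib 3.10.9.

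The replicate numbers were checked as pairs. The deviations of same-numbered 2 h and non-wounded samples from their group means had correlations over probe sets of 0.796 (number 1), 0.449 (2), 0.651 (3) and 0.297 (4). Each is above 0.1, so the fit with the number as a block is given as an alternative to the test above, which has no block. Without number 1 the correlations were -0.150, 0.0727 and -0.319, so the pairing rests on the samples numbered 1. Alternatives were the replicate block, quantile normalization, median centring, one median and SD per sample, a filter on the lowest 25% of mean levels, trend and robust variance, array weights, the compared groups alone, numbers 2 to 4 alone, 1 probe set per gene and leaving out each sample. The scaling with the replicate block was added after seeing the data.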

Additional observations from a re-analysis of the deposited data

Results flagged for a closer look

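Of the 86 groups of 4 values (43 probe sets at 2 h and in the non-wounded samples), 12 held a sample far from the other 3, by a gap that is a larger share of the range than the 95% critical value of Dixon's test. Chance alone flags about 1 in 20 such groups. In all 12 the distant sample was the one numbered 1, in 8 groups at 2 h and in 4 non-wounded groups. At 2 h, the sample numbered 1 was low for Cmas (5.74, nearest other 7.59), Fut8 (4.50, nearest 5.41), Gne (4.32, nearest 5.08) and Nans (4.36, nearest 5.15). At 2 h it was high for Fut4 (at) (2.93, nearest 2.36), Pofut2 (5.84, nearest 5.39), St6galnac1 (3.66, nearest 2.98) and St8sia3 (3.72, nearest 2.57). In the non-wounded group it was low for Cmas (5.60, nearest 7.57), Npl (6.41, nearest 8.64) and St8sia4 (2.60, nearest 3.43), and high for St6galnac4 (4.15, nearest 3.81). Fut1 and Neu3 had no such sample. What sets the samples numbered 1 apart was not tested.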

How the results depend on the processing

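The number of called probe sets at 2 h, 0 of 43, was 7 with array weights and 2 with numbers 2 to 4 alone. With array weights (limma), Fut1 (-1.16, adjusted p = 1.11e-04), Neu3 (-0.71, 6.97e-04), Fut2 (s_at), Fut10 (s_at), St6gal1 and St8sia1 were called lower and St3gal1 higher; the adjusted p of Fut1 reached 0.565 and that of Neu3 0.902 in other alternatives. With the replicate block, Fut1 had an adjusted p of 0.0544 and Neu3 of 0.122, and no call of an enzyme changed. The median of the 43 at 2 h, -0.02, became -0.11 with median centring and -0.095 with one median and SD, with or without the replicate block. At 30 min the median of -0.07 became -0.23 with quantile normalization, -0.16 with centring, -0.23 with one median and SD, -0.19 with that and the block, and -0.18 without dim probe sets. The median of all probe sets moved the same way with one median and SD, from 0.03 to -0.06 at 2 h and from 0.04 to -0.09 at 30 min. Between 2 h and 30 min the median of 0.01 became 0.12 with the replicate block. At 0 h, 0 probe sets were lower against the non-wounded sample numbered 1, and 1 was higher with one median and SD. At 4 h, 2 were higher against the sample numbered 1 and 2 with one median and SD, which also gave 6 lower.

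Leaving out each sample in turn gave 0 called at 2 h, 20 to 27 of 43 lower and medians between -0.06 and 0.02. At 30 min it gave 0 to 2 called, 22 to 31 lower and medians between -0.12 and -0.01. Between 2 h and 30 min it gave 0 called, 14 to 20 lower and medians between 0.03 and 0.08. At 2 h, Fut1 stayed between -1.13 and -0.87 and Neu3 between -0.76 and -0.52. Signs turned for Fut10 (at) at 2 h with quantile normalization (-0.0077), one median and SD (-0.022, also with the replicate block), array weights (-0.0072) and numbers 2 to 4 alone (-0.032), and for Fut4 (at) at 30 min with numbers 2 to 4 alone (-0.029). With each sample left out in turn, the sign turned once for 6 differences, each time without a 30 min sample. At 30 min, Fut10 (s_at) ran between -0.26 and 0.12 and Fut4 (at) between -0.028 and 1.38. Between 2 h and 30 min, Fut10 (s_at) ran between -0.38 and 0.0020, Fut4 (at) between -1.37 and 0.041, Neu1 between -0.047 and 1.01 and St6galnac5 between -1.19 and 0.022. The cause was not tested. In all, 150 other counts and medians and 367 single values kept their direction and side of the threshold, and 10 single values passed it under an alternative alone.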
